A study of Mus musculus with 6 samples.

Results

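The genes described here encode extracellular proteins of the tectorial membrane and of the related acellular membranes of the inner ear. They were chosen by name, as *Tecta*, *Tectb*, *Otog*, *Otogl*, *Otoa*, *Ceacam16* and *Emilin2*, and not by a cut on their measured values. Earlier results of these data were known when they were chosen. These 7 genes stood among 51802 gene symbols listed, and all 7 were among the 17136 symbols that passed a filter on low counts. For each gene, the counts and the FPKM values (a level in fragments per kilobase, corrected for library size) were summed over its listed transcripts, 23 transcripts in all.

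RNA-seq had been performed on whole cochleae of mice aged 2 months on the C57/BL6J background, with 3 wildtype samples (numbered 3, 4 and 5) and 3 *Pou4f3(Δ/+)* samples (numbered 1, 2 and 3). *Pou4f3(Δ/+)* mice carry 1 knock-in allele of *Pou4f3*, a hair cell transcription factor, with a small deletion and a C-to-T change modelled on a family with dominant progressive deafness, and no treatment was named for either group. Mice of this strain, of either genotype, carry the homozygous *Cdh23(ahl)* allele, which is known to cause progressive hearing loss. Neither the sex of the mice nor the number of animals per sample was given, so the p-values measured the spread between these samples, which may be partly technical. Summed counts ran from 14295069 to 17696784 per sample.

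The tectorial membrane is a gel without cells that lies over the organ of Corti and touches the stereocilia of the outer hair cells, so that sound moves it against them. It is built of collagen fibrils embedded in a matrix of non-collagenous glycoproteins. Alpha-tectorin (*Tecta*) and beta-tectorin (*Tectb*) form the striated sheet of this matrix together with the secreted protein CEACAM16, while otogelin (*Otog*) and otogelin-like (*Otogl*) are large mucin-related proteins of the same membranes. Otoancorin (*Otoa*) attaches the membrane to the cells of the spiral limbus, and EMILIN2 is an extracellular glycoprotein known from the basilar membrane. Supporting and interdental cells, rather than hair cells, make most of these proteins, and the tectorins are known as genes of the developing cochlea. The human counterparts of *Tecta*, *Otog*, *Otogl*, *Otoa* and *Ceacam16* are known deafness genes.

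In the adult cochlea the 7 genes spanned a 354-fold range of mean FPKM over the 6 samples. *Ceacam16* stood at the 96.5th percentile of mean FPKM among the tested genes and *Emilin2* at the 83.5th. *Otoa* lay at the 49.7th percentile, close to the median tested gene at 8.83 FPKM. Below it came *Otog* at the 30.9th percentile and *Otogl* at the 24.5th. The tectorins were the lowest, with *Tectb* at the 9.25th and *Tecta* at the 2.11th percentile. Stepwise down this order, mean FPKM differed 3.25-fold between *Ceacam16* and *Emilin2*, 3.61-fold between *Emilin2* and *Otoa*, 2.42-fold between *Otoa* and *Otog*, 1.49-fold between *Otog* and *Otogl*, 3.54-fold between *Otogl* and *Tectb*, and 2.36-fold between *Tectb* and *Tecta*. The ranges over the 6 samples did not overlap between neighbours, except for *Otog* with *Otogl* and *Tectb* with *Tecta*, where the higher gene led in 5 of 6 samples each. FPKM is scaled to transcript length, so these levels can be compared between genes. With CPM per kilobase of the longest coding transcript instead, a scale added after seeing the data, the order was the same and the range was 616-fold, while *Otog* and *Otogl* differed 1.13-fold, with *Otog* higher in 4 of 6 samples.

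**Figure D1:**
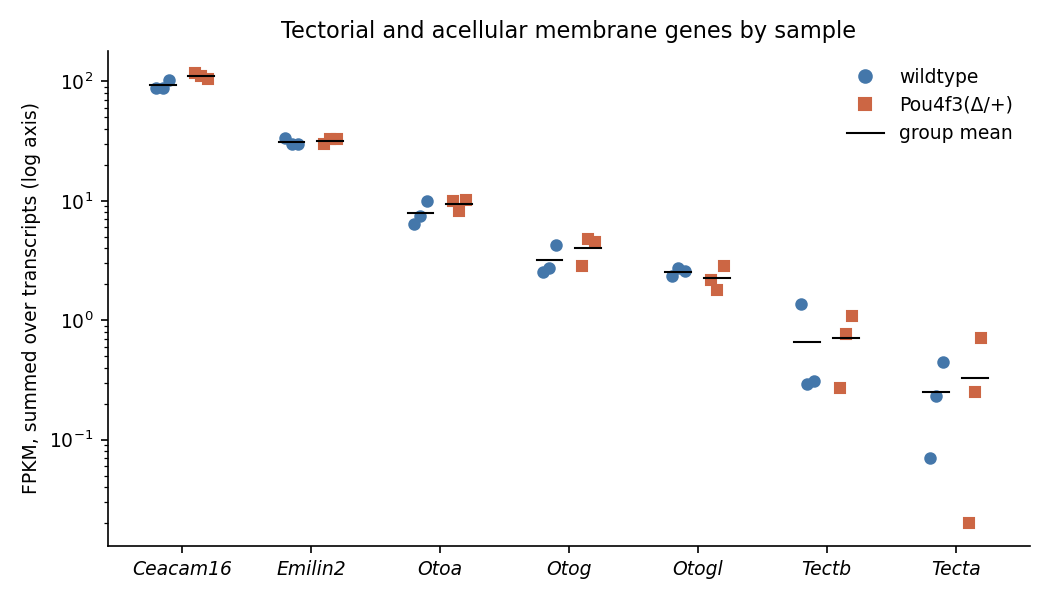
Summed FPKM of each gene (log axis) in the 3 wildtype samples (circles) and the 3 *Pou4f3(Δ/+)* samples (squares), with group means as lines. *Ceacam16* and *Emilin2* sat far above the tectorins, and *Ceacam16* was the gene whose genotype groups did not overlap.

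The comparison of *Pou4f3(Δ/+)* with wildtype cochleae asks whether the levels of these transcripts differed at 2 months of age, in a mouse whose mutated gene acts in hair cells. No gene of the 7 passed an adjusted p of 0.05 in edgeR's quasi-likelihood test with Benjamini-Hochberg adjustment over all 17136 genes, where the background was 0% of genes called. At an unadjusted p under 0.05, 1 of the 7 was called (*Ceacam16*, higher), against 7.64% of all tested genes in either direction and 3.5% in the higher direction. DESeq2 on the same counts also called none of the 7 at an adjusted p under 0.05, and called 64 genes or 0.374% of all. The log2 fold change was above 0 for 6 of the 7 genes, against 49.4% of all genes, and its median was 0.21 over the 7 genes against -0.00 over all genes tested. For 3 of these 6 genes (*Tecta*, *Tectb* and *Otoa*) the sign turned when a single sample was left out. *Pou4f3* itself, whose transcript the knock-in allele still encodes in mutated form, read 1.67, 2.13 and 2.17 FPKM in wildtype and 1.58, 2.65 and 1.5 FPKM in *Pou4f3(Δ/+)* samples, so its level did not separate the groups. In bulk RNA, fewer cells of a type and less RNA per cell cannot be told apart.

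**Figure D2:**
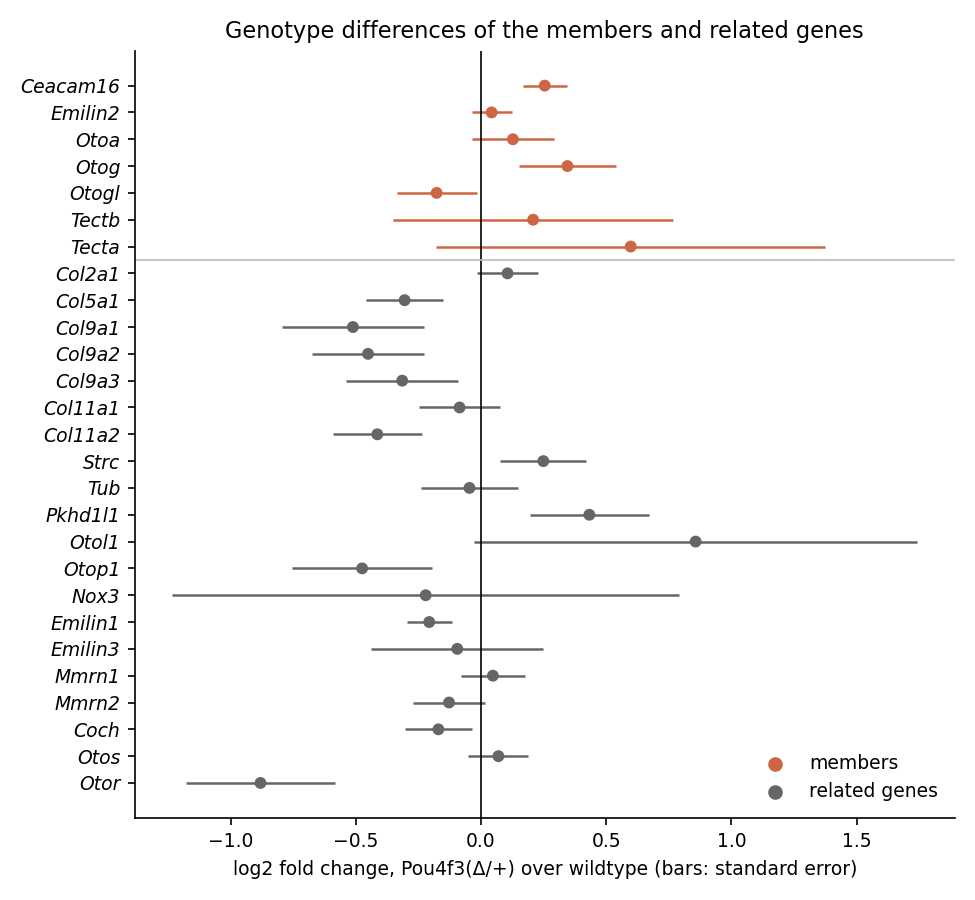
Log2 fold change of *Pou4f3(Δ/+)* over wildtype from edgeR (points) with its standard error (bars), for the 7 genes (above the line) and for 20 tested genes of related lists (below it). Of the 7 genes, the tectorins had the widest errors and *Emilin2* and *Ceacam16* the narrowest, and no gene shown passed an adjusted p of 0.05.

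*Ceacam16* is a gene of 9203 bases on the minus strand at chr7:19852097-19861299 (GRCm38), and its protein is a secreted member of the carcinoembryonic antigen family made by supporting cells. The start of its coding sequence is printed here from the genome, as the most abundant of these transcripts, with the start codon in capitals. Its first 150 coding bases lie on 2 exons, at chr7:19861109-19861151 and chr7:19858832-19858938, read on the minus strand.

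Ceacam16-201: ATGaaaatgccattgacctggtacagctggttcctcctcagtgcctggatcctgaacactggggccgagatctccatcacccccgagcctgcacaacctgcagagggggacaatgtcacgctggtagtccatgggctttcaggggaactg

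*Ceacam16* read 88.0, 88.8 and 102 FPKM in the wildtype samples and 117, 111 and 105 FPKM in the *Pou4f3(Δ/+)* samples. All 3 *Pou4f3(Δ/+)* samples lay above all 3 wildtype samples, with 2.96 FPKM between the nearest ones, *Pou4f3(Δ/+)* 3 and wildtype 5. FPKM groups lay apart in this direction for 1 of the 7 genes and for 6.02% of all tested genes, in the lower direction for none of the 7 and for 6.03%, and in either direction for 12.1% of all. The means were 93.0 ± 7.93 FPKM (SD, n = 3) and 111 ± 5.98 FPKM (SD, n = 3). The log2 fold change was 0.25 with a standard error of 0.087 (edgeR quasi-likelihood test, unadjusted p = 0.0177, adjusted p = 0.643), and DESeq2 gave an adjusted p of 0.530. The fold change kept its sign under all 14 alternative settings and leave-outs, between 0.15 and 0.33, and in none of them did its adjusted p fall under 0.05. The unadjusted p was above 0.05 in 3 of the 6 fits with 1 sample left out, at 0.069 without wildtype 3, 0.073 without wildtype 4 and 0.064 without *Pou4f3(Δ/+)* 1.

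All of the *Ceacam16* signal came from the coding transcript Ceacam16-201, with 2074 to 3386 counts per sample for the gene. The shorter Ceacam16-202 was listed at 0 in all 6 samples, where 3 counts would have been worth 0.347 to 0.430 FPKM, for counting error alone. On the opposite strand, the gene *Gm19345* shares 380 of its 993 exon bases with *Ceacam16*. Its estimated counts were 52.1, 52.8 and 53.0 in wildtype and 92.1, 39.0 and 58.1 in *Pou4f3(Δ/+)* samples. Whether the libraries kept strand was not given in the sources used here, so reads of the overlap cannot be told apart.

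The lists of cell types measured beside *Ceacam16* gave the following. None of the 9 supporting cell markers had an unadjusted p under 0.05, and their summed level was 1449 to 1671 CPM (counts scaled to the library total) in wildtype and 1322 to 1597 CPM in *Pou4f3(Δ/+)* samples. None of 9 hair cell markers did either, with 388 to 404 CPM and 362 to 408 CPM. In both lists the sums of *Pou4f3(Δ/+)* 1 and 2, the samples with the most *Ceacam16*, lay below all wildtype samples. They were 1340 and 1322 CPM of supporting cell markers and 365 and 362 CPM of hair cell markers, while *Pou4f3(Δ/+)* 3 did not lie below. These sums rested on few genes. Marker by marker, only *Gjb2*, *Gjb6* and *Slc1a3* of the supporting cells and *Myo6* of the hair cells lay below all wildtype samples in both. *Gjb2* read 436, 479 and 536 CPM in wildtype and 368, 323 and 498 CPM in *Pou4f3(Δ/+)* samples. *Myo6* read 176, 183 and 208 CPM in wildtype and 164, 152 and 190 CPM in *Pou4f3(Δ/+)* samples. By contrast, 8 of 9 B cell markers had an unadjusted p under 0.05 in the higher direction, with summed levels of 379 to 421 CPM in wildtype and 428 to 736 CPM in *Pou4f3(Δ/+)* samples. Of 7 bone cell markers, 4 had an unadjusted p under 0.05 in the lower direction, with 1817 to 2630 CPM and 1502 to 1770 CPM, and of 5 markers of the stria vascularis 3 did, with 796 to 860 CPM and 521 to 737 CPM. Of all tested genes, 3.5% had an unadjusted p under 0.05 in the higher direction and 4.14% in the lower. None of these markers passed an adjusted p of 0.05 (edgeR quasi-likelihood test), and no marker was at 0 in all samples. Of the further lists, 1 of 7 markers of neurons and Schwann cells and 1 of 7 of neutrophils had an unadjusted p under 0.05 in the lower direction in the same test. In the higher direction 1 of 6 of red blood cells did, and none of 4 osteoclast, 6 macrophage and 4 platelet markers did in either. All 6 red blood cell markers had a log2 fold change above 0. For 4 of them DESeq2 gave an unadjusted p under 0.05 (*Hba-a1* 0.019, *Alas2* 0.029, *Slc4a1* 0.012 and *Klf1* 0.016). The part of these shifts in the *Ceacam16* difference was not tested.

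*Emilin2* lies on the minus strand at chr17:71252172-71311978 (GRCm38) and was the second most abundant of the genes. It read 33.4, 29.7 and 29.7 FPKM in wildtype and 30.2, 32.7 and 32.7 FPKM in *Pou4f3(Δ/+)* samples. The groups overlapped, with the highest value in wildtype 3. The means were 30.9 ± 2.16 FPKM (SD, n = 3) and 31.9 ± 1.46 FPKM (SD, n = 3), a log2 fold change of 0.04 with a standard error of 0.08 (edgeR quasi-likelihood test, adjusted p = 0.904). Its 1 listed transcript, Emilin2-201, carried 1657 to 2255 counts per sample, and the gene had the narrowest error of the 7.

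*Otoa* lies on the plus strand at chr7:121081650-121163097 (GRCm38). It read 6.36, 7.53 and 9.97 FPKM in wildtype and 9.95, 8.27 and 10.1 FPKM in *Pou4f3(Δ/+)* samples. Wildtype 3 and 4 were the lowest samples, and wildtype 5 lay among the *Pou4f3(Δ/+)* samples. The means were 7.95 ± 1.84 FPKM (SD, n = 3) and 9.45 ± 1.03 FPKM (SD, n = 3), and the log2 fold change was 0.13 with a standard error of 0.17 (edgeR quasi-likelihood test, adjusted p = 0.848). It was -0.03 without wildtype 3 and 0.30 without wildtype 5, so its sign rested on 1 library.

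The largest part of the FPKM of *Otoa* was assigned to a transcript that is annotated as a target of nonsense-mediated decay, the pathway that degrades mRNAs with a premature stop codon. This transcript, Otoa-202, has 19 exons, of which 17 are identical to exons of the full-length coding transcript Otoa-201 with its 29 exons. It starts with a 25-base exon at chr7:121118390-121118414, which Otoa-201 lacks and which lies within the first exon of Otoa-203, and the 11 exons of Otoa-201 that lie before this point, 1173 bases in all, are missing from it. The junction of each transcript into the first shared exon is printed here, because these bases tell the 5′ part of Otoa-201 from that of Otoa-202 and Otoa-203, which share the junction of Otoa-202. Capitals mark the 25 bases before the shared exon, which lie at chr7:121114585-121114609 for Otoa-201, and lower case marks the first 25 bases of the shared exon, at chr7:121118542-121118566 (plus strand, GRCm38).

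Otoa-201: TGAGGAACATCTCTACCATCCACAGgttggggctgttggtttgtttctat
Otoa-202: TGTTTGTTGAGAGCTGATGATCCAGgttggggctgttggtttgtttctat

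**Figure D3:**
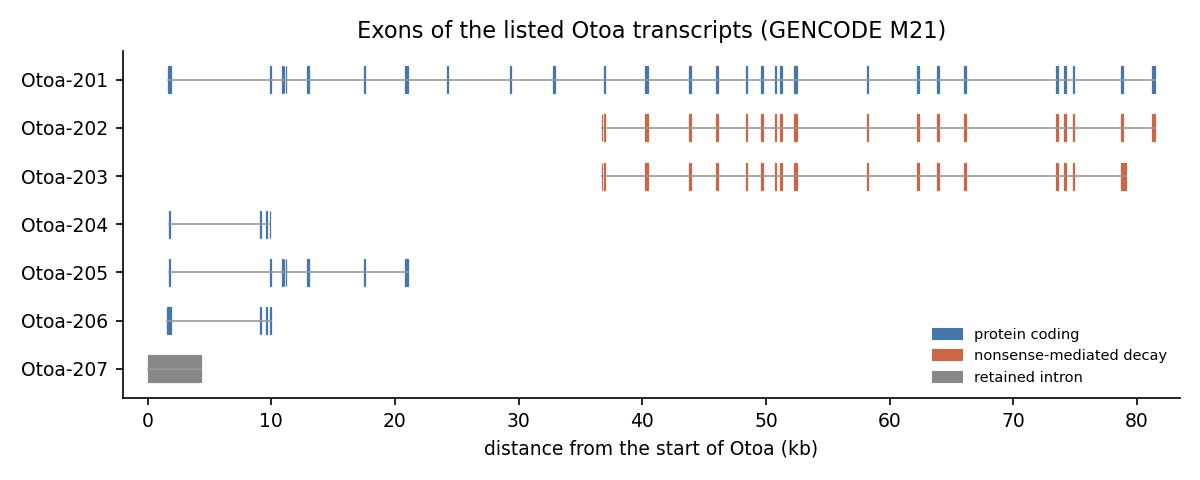
Exons (boxes, to scale) of the 7 listed *Otoa* transcripts along the gene, as distance from its start in kb, coloured by annotated type. Otoa-202 and Otoa-203 lack the first 11 exons of Otoa-201.

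Otoa-202 was the largest part in every sample except wildtype 4. It read 3.14, 2.62 and 5.50 FPKM in wildtype and 5.42, 4.85 and 6.20 FPKM in *Pou4f3(Δ/+)* samples. The groups overlapped through wildtype 5. Its mean share of the *Otoa* FPKM was 46.4% ± 10.5 (SD, n = 3) for the wildtype and 58.1% ± 3.37 (SD, n = 3) for the *Pou4f3(Δ/+)* cochleae, with a log2 fold change of its counts of 0.54 and a standard error of 0.31 (edgeR quasi-likelihood test over 38347 transcripts, unadjusted p = 0.127, adjusted p = 0.999).

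The coding transcript Otoa-201 read 1.84, 2.90 and 2.56 FPKM in wildtype and 2.23, 2.00 and 1.86 FPKM in *Pou4f3(Δ/+)* samples. These levels overlapped, while its share of the gene did not: it was 28.9%, 38.5% and 25.7% in wildtype against 22.4%, 24.2% and 18.3% in *Pou4f3(Δ/+)* samples. Of the 6 transcripts compared in this way (those of *Otoa* and *Otog*, the genes with at least 2 tested transcripts), 1 had shares apart in the lower direction and none in the higher one, against 4.51% of 30443 such transcripts of all genes in the lower direction and 9.12% in either. The mean shares were 31.0% ± 6.67 (SD, n = 3) and 21.6% ± 2.99 (SD, n = 3). With 3 samples against 3, a two-sided exact permutation test cannot give a p under 0.1, and the level of Otoa-201 itself had a log2 fold change of -0.26 (edgeR quasi-likelihood test, unadjusted p = 0.284).

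Among the other *Otoa* transcripts, those with enough counts for the test were Otoa-205 and Otoa-203. Otoa-205, a short coding transcript of the 5′ part, made up 8.83% ± 5.09 (SD, n = 3) of the gene for the wildtype and 14.3% ± 5.38 (SD, n = 3) for the *Pou4f3(Δ/+)* cochleae. Otoa-203, also annotated for nonsense-mediated decay, had estimated counts of 7.74, 54.1 and 20.7 in wildtype and of 26.4, 0 and 0 in *Pou4f3(Δ/+)* samples, so that a single sample carried the *Pou4f3(Δ/+)* signal. Short reads split between transcripts that share 17 exons leave such estimates uncertain. Over all 7 genes, 11 transcripts were tested and none passed an adjusted p of 0.05 (0% of all transcripts tested), while Ceacam16-201 alone had an unadjusted p under 0.05, at 0.034, against 4.14% of all transcripts tested.

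**Figure D4:**
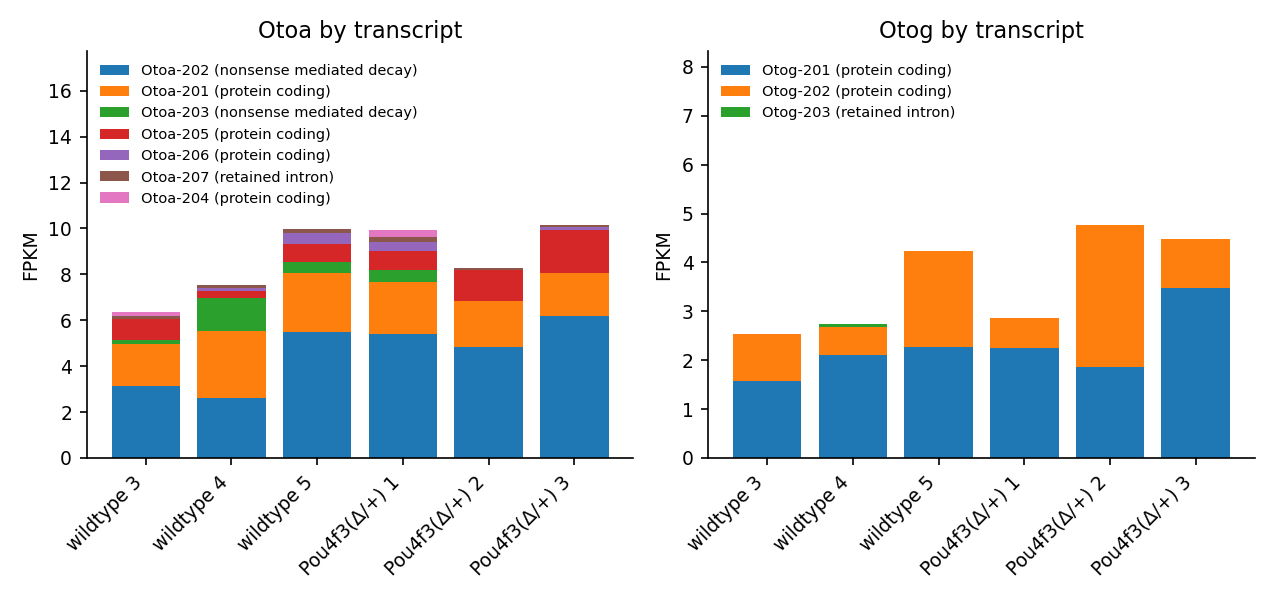
FPKM of each sample split by transcript for *Otoa* (left) and *Otog* (right), as stacked bars, with the annotated type of each transcript in the key. Otoa-202 was the largest part of *Otoa* in 5 of 6 samples, and Otog-202 exceeded Otog-201 in *Pou4f3(Δ/+)* 2 alone.

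*Otog* lies on the plus strand at chr7:46240987-46311434 and *Otogl* on the minus strand at chr10:107760531-107912134 (GRCm38). *Otog* read 2.54, 2.73 and 4.24 FPKM in wildtype and 2.86, 4.76 and 4.48 FPKM in *Pou4f3(Δ/+)* samples. *Pou4f3(Δ/+)* 2 and 3 were the highest samples, but wildtype 5 lay above *Pou4f3(Δ/+)* 1. The log2 fold change was 0.35 with a standard error of 0.19 (edgeR quasi-likelihood test, unadjusted p = 0.109, adjusted p = 0.666), from means of 3.17 ± 0.932 FPKM (SD, n = 3) and 4.03 ± 1.03 FPKM (SD, n = 3). With 1 sample left out it ranged from 0.17 without *Pou4f3(Δ/+)* 3 to 0.53 without wildtype 5 (edgeR quasi-likelihood test, unadjusted p = 0.022, adjusted p = 0.941). The unadjusted p was under 0.05 in 4 of 14 alternatives, among them the fit that left *Pou4f3(Δ/+)* 3 alone in its group.

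Part of the spread of *Otog* came from a short coding transcript, Otog-202, which has 18 exons against 56 in Otog-201 and an 80-base first exon of its own. Otog-202 read 0.96, 0.57 and 1.97 FPKM in wildtype and 0.62, 2.89 and 1.01 FPKM in *Pou4f3(Δ/+)* samples. Its share of the gene ran from 20.9% in wildtype 4 to 60.7% in *Pou4f3(Δ/+)* 2, and its mean was 35.0% in both groups, with an SD of 13.0 over the 3 wildtype and of 22.3 over the 3 *Pou4f3(Δ/+)* samples. The long transcript Otog-201 read 1.58, 2.10 and 2.27 FPKM in wildtype and 2.24, 1.87 and 3.47 FPKM in *Pou4f3(Δ/+)* samples. Both transcripts overlapped between the genotypes.

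*Otogl* was the 1 gene of the 7 with a log2 fold change below 0. It read 2.33, 2.74 and 2.61 FPKM in wildtype and 2.19, 1.78 and 2.84 FPKM in *Pou4f3(Δ/+)* samples. *Pou4f3(Δ/+)* 1 and 2 were the lowest samples and *Pou4f3(Δ/+)* 3 the highest, so the groups overlapped. The log2 fold change was -0.18 with a standard error of 0.16 (edgeR quasi-likelihood test, adjusted p = 0.784), and it was -0.35 without *Pou4f3(Δ/+)* 3 (edgeR quasi-likelihood test, unadjusted p = 0.028, adjusted p = 0.229), -0.04 without *Pou4f3(Δ/+)* 2 and 0.13 when *Pou4f3(Δ/+)* 1 and 2 were left out. The means were 2.56 ± 0.210 FPKM (SD, n = 3) and 2.27 ± 0.535 FPKM (SD, n = 3), and 1 transcript, Otogl-201, held the whole signal.

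*Tecta* and *Tectb* had the fewest counts of the 7 genes and the widest spread between samples. *Tecta* lies on the minus strand at chr9:42329619-42399929 (GRCm38) and had 9, 10 and 28 counts in wildtype and 3, 24 and 40 counts in *Pou4f3(Δ/+)* samples. On the FPKM scale it read 0.07, 0.23 and 0.45 in wildtype and 0.02, 0.25 and 0.71 in *Pou4f3(Δ/+)* samples. The lowest and the highest sample were both *Pou4f3(Δ/+)*. The means were 0.250 ± 0.191 FPKM (SD, n = 3) and 0.327 ± 0.351 FPKM (SD, n = 3), and the log2 fold change was 0.60 with a standard error of 0.78 (edgeR quasi-likelihood test, adjusted p = 0.848). Without *Pou4f3(Δ/+)* 3 it was -0.17, so even the sign rested on 1 library, and the genotypes differed by less than the spread between samples.

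*Tecta* is annotated with 2 full-length coding transcripts of 24 exons, Tecta-201 and Tecta-203, which differ in 15 coding bases. The alternative stretch is printed here in capitals between the flanking bases, because it tells these 2 full-length forms apart. It was read on the minus strand of chr9, where the upstream exon ends at chr9:42345403-42345427 and the longer form of the next exon begins at chr9:42343885-42343924 (GRCm38).

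Tecta-201: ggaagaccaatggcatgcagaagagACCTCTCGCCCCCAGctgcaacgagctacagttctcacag
Tecta-203: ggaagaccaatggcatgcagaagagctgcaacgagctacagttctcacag

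The shorter form Tecta-203 made up 49.5% ± 44.3 (SD, n = 3) of the *Tecta* FPKM for the wildtype and 61.9% ± 34.2 (SD, n = 3) for the *Pou4f3(Δ/+)* cochleae. Tecta-201, the form with the 15 bases, had more than 1 estimated count in *Pou4f3(Δ/+)* 2 alone, with 8.08. The rest went to Tecta-202, a transcript of 9 exons without a coding sequence, with 50.5% ± 44.3 (SD, n = 3) and 28.7% ± 34.0 (SD, n = 3). These shares rested on few counts and varied widely within each genotype.

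*Tectb* lies on the plus strand at chr19:55180733-55196313 (GRCm38) and had 39, 11 and 12 counts in wildtype and 12, 28 and 28 counts in *Pou4f3(Δ/+)* samples. It read 1.36, 0.29 and 0.31 FPKM in wildtype and 0.27, 0.77 and 1.09 FPKM in *Pou4f3(Δ/+)* samples. The highest sample, wildtype 3, was a wildtype one, and the other 2 wildtype samples lay beside *Pou4f3(Δ/+)* 1 at the low end. The log2 fold change was 0.21 with a standard error of 0.56 (edgeR quasi-likelihood test, adjusted p = 0.940), from means of 0.653 ± 0.612 FPKM (SD, n = 3) and 0.710 ± 0.413 FPKM (SD, n = 3). Without wildtype 3 it was 0.98, and it was -0.08 without wildtype 5, -0.03 without wildtype 4 and -0.01 without *Pou4f3(Δ/+)* 3. Tectb-201 took 71.1% ± 22.3 (SD, n = 3) and 74.1% ± 19.8 (SD, n = 3) of the gene, and the short coding Tectb-206 took 24.1% ± 21.5 (SD, n = 3) and 11.0% ± 10.4 (SD, n = 3). The microRNA gene *Mir6715* lies within *Tectb* and had 0 counts in all 6 samples.

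The tectorins did not rise and fall together over the samples. *Tecta* was lowest in wildtype 3 and *Pou4f3(Δ/+)* 1, whereas wildtype 3 was the highest sample for *Tectb*, and over the 6 samples their log2 CPM values had a Pearson r of 0.38 (Spearman rho of 0.26). *Tecta* followed *Otol1* more closely, a gene of the otoconial membrane of the vestibular organs, with a Pearson r of 0.89 (rho of 0.89). *Otol1* read 0.05, 0.10 and 0.54 FPKM in wildtype and 0.08, 0.60 and 0.63 FPKM in *Pou4f3(Δ/+)* samples, and was chosen for this comparison after its values were seen. *Nox3*, another vestibular gene, was also at its lowest in wildtype 3 and *Pou4f3(Δ/+)* 1, with 0, 0.51 and 0.39 FPKM in wildtype and 0.03, 0.47 and 0.27 FPKM in *Pou4f3(Δ/+)* samples, and its Pearson r with *Tecta* was 0.67 (rho of 0.37). Of the other otoconial genes, *Otop1* was lowest in *Pou4f3(Δ/+)* 2, followed by *Pou4f3(Δ/+)* 1 and wildtype 3, and *Oc90* had counts in *Pou4f3(Δ/+)* 1 alone. The points share their libraries and rest on few counts, and whether vestibular tissue came along with some cochleae was not tested.

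Among the 21 pairs of the 7 genes, *Tectb* with *Emilin2* had the highest Pearson r, at 0.96 with a Spearman rho of 0.71, and *Tecta* with *Otog* the highest rho, at 0.83 with an r of 0.77. Across all other tested genes, those whose log2 CPM over the 6 samples was most like the mean standardized log2 CPM of the 7 genes were *Trim34b* with a Pearson r of 0.99, *Arl6ip1* with 0.97 and *Emx2* with 0.97. The 6 points of each share genotype, library and depth, and these values are descriptions.

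The collagens of the tectorial membrane mostly had fold changes below 0, and their difference from the glycoproteins was not tested. Of 7 collagen genes described in this membrane (*Col2a1*, *Col5a1*, *Col9a1*, *Col9a2*, *Col9a3*, *Col11a1* and *Col11a2*), 6 had a log2 fold change below 0, with a median of -0.31 over the 7, and none passed an adjusted p of 0.05 in edgeR's quasi-likelihood test. *Col11a2*, which encodes a chain of type XI collagen, alone had an unadjusted p under 0.05 in that test (0.044, adjusted p = 0.643), against 4.14% of all genes in the lower direction. With DESeq2, *Col9a2* also had one (unadjusted p = 0.031, adjusted p = 0.678). It read 87.6, 83.8 and 94.9 FPKM in wildtype and 53.4, 54.4 and 84.2 FPKM in *Pou4f3(Δ/+)* samples, with a log2 fold change of -0.41 and a standard error of 0.18. The low values were those of *Pou4f3(Δ/+)* 1 and 2, while *Pou4f3(Δ/+)* 3 lay within the wildtype range.

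The 3 chains of type IX collagen showed the same split among the *Pou4f3(Δ/+)* samples. *Col9a1* read 6.02, 5.27 and 6.51 FPKM in wildtype and 2.95, 2.87 and 7.18 FPKM in *Pou4f3(Δ/+)* samples. *Col9a2* read 17.0, 19.0 and 20.6 FPKM in wildtype and 11.8, 10.2 and 20.0 FPKM in *Pou4f3(Δ/+)* samples. *Col9a3* read 11.2, 11.9 and 12.4 FPKM in wildtype and 9.17, 8.29 and 13.5 FPKM in *Pou4f3(Δ/+)* samples. In each, *Pou4f3(Δ/+)* 1 and 2 lay below all wildtype samples and *Pou4f3(Δ/+)* 3 did not. Without *Pou4f3(Δ/+)* 3, the edgeR quasi-likelihood test gave an adjusted p of 0.0300 for *Col9a1* with a log2 fold change of -0.97, of 0.0181 for *Col9a2* with -0.81 and of 0.0183 for *Col11a2* with -0.68, in a fit that called 193 of 17513 genes (1.1%). With *Pou4f3(Δ/+)* 1 and 2 left out instead, *Pou4f3(Δ/+)* 3 was the only sample of its genotype. The log2 fold changes were then 0.13 for *Col9a1*, 0.09 for *Col9a2*, 0.19 for *Col9a3* and 0.01 for *Col11a2*. The other 3 collagens did not show this split. *Col5a1*, a chain of type V collagen, read 8.56, 8.36 and 10.4 FPKM in wildtype and 9.13, 6.85 and 6.12 FPKM in *Pou4f3(Δ/+)* samples, so that *Pou4f3(Δ/+)* 3 was its lowest sample. Its log2 fold change was -0.31 with all samples, -0.17 without *Pou4f3(Δ/+)* 3 and -0.59 with *Pou4f3(Δ/+)* 1 and 2 left out. For *Col2a1* and *Col11a1*, *Pou4f3(Δ/+)* 1 and 2 lay within the wildtype range.

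*Otor*, which encodes the secreted protein otoraplin and is also expressed in cartilage, was also lowest in *Pou4f3(Δ/+)* 1 and 2. Of the 3 genes of spiral limbus and ligament fibrocytes it was the 1 with an unadjusted p under 0.05, with 36.9, 43.4 and 47.4 FPKM in wildtype and 20.8, 12.7 and 36.3 FPKM in *Pou4f3(Δ/+)* samples. All *Pou4f3(Δ/+)* samples lay below all wildtype samples, by 0.58 FPKM between the nearest ones. The log2 fold change was -0.88 with a standard error of 0.30 (edgeR quasi-likelihood test, unadjusted p = 0.017, adjusted p = 0.643), and without *Pou4f3(Δ/+)* 3 it was -1.32 with an adjusted p of 0.0300. *Coch*, the most abundant gene of that list, read 2084, 2134 and 2828 FPKM in wildtype and 2030, 2147 and 2095 FPKM in *Pou4f3(Δ/+)* samples, which overlapped.

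Summed markers of several cell types split the *Pou4f3(Δ/+)* samples in the same way. The supporting and hair cell sums given above did so through few genes. The markers of neurons and Schwann cells read 2071 and 1901 CPM in *Pou4f3(Δ/+)* 1 and 2, below the wildtype range of 2326 to 2579 CPM, and 2672 CPM in *Pou4f3(Δ/+)* 3. Stria markers read 594 and 521 CPM in *Pou4f3(Δ/+)* 1 and 2 and 737 CPM in *Pou4f3(Δ/+)* 3, all below wildtype. In the other direction, *Pou4f3(Δ/+)* 1 and 2 had 682 and 736 CPM of B cell markers against 428 CPM in *Pou4f3(Δ/+)* 3, and 10888 and 12232 CPM of red blood cell markers against 8496 CPM, with 7967 to 9212 CPM of the latter in wildtype.

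Bone markers did not follow this split as a list. Their sum was lowest in *Pou4f3(Δ/+)* 3, at 1502 CPM, and the genes differed among themselves. *Alpl*, an alkaline phosphatase that bone needs to mineralize, read 66.7, 76.5 and 85.1 FPKM in wildtype and 35.7, 20.2 and 55.5 FPKM in *Pou4f3(Δ/+)* samples. *Ibsp*, a matrix protein of bone, read 373, 365 and 563 FPKM in wildtype and 401, 480 and 246 FPKM in *Pou4f3(Δ/+)* samples. Of the 7 log2 fold changes 1 was above 0, that of the osteocalcin gene *Bglap* at 0.38, and that of *Dmp1* was -0.01. Collagens IX and XI are also made by cartilage, and the part of these shifts in the collagen values was not tested. For *Ceacam16*, *Pou4f3(Δ/+)* 1 and 2 were likewise the highest samples. Its log2 fold change was 0.15 when both were left out, which left *Pou4f3(Δ/+)* 3 alone in its group.

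**Figure D5:**
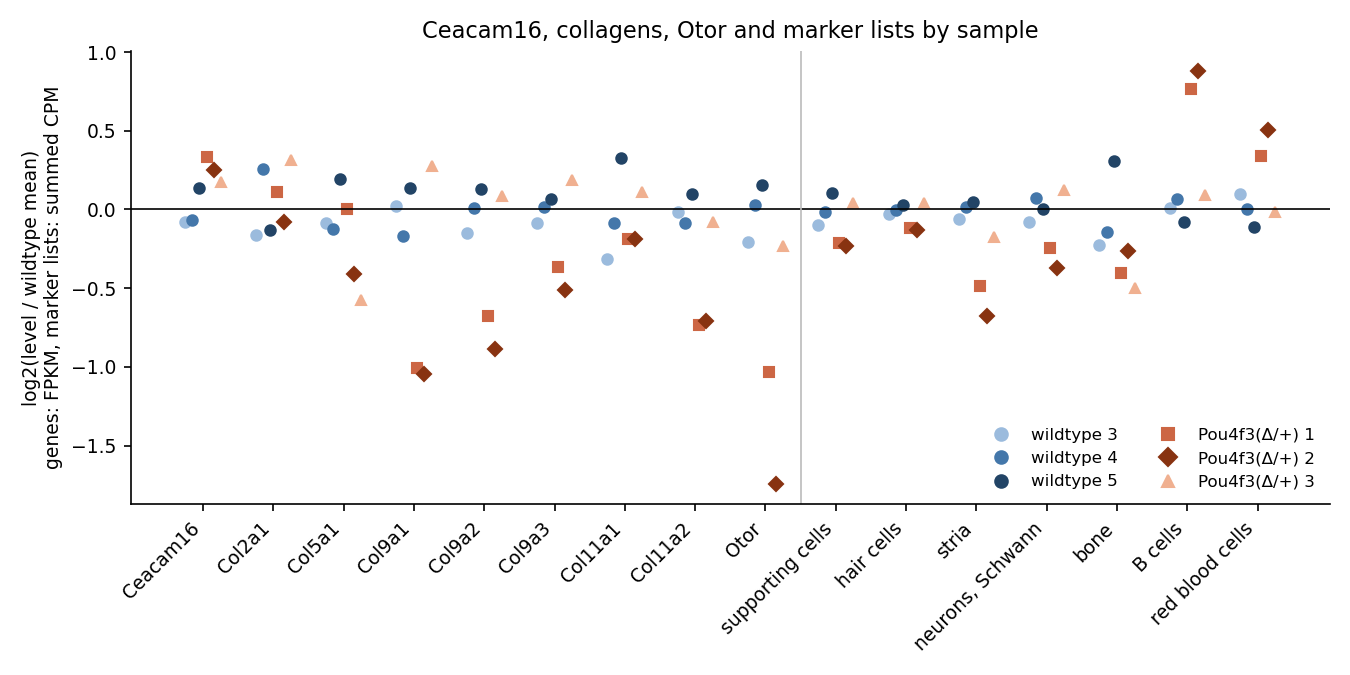
Level of each sample over the wildtype mean (log2) for *Ceacam16*, 7 collagens and *Otor* (FPKM, left of the line) and for 7 marker lists (summed CPM, right of it), with 1 symbol per sample. *Pou4f3(Δ/+)* 1 and 2 lay below all wildtype samples in *Col9a1*, *Col9a2*, *Col9a3*, *Col11a2*, *Otor* and the supporting cell, hair cell, stria, neuron and bone lists, and above them in the B cell and red blood cell lists.

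The partners of the tectorial membrane on the hair cell side did not pass the test. Of *Strc*, *Tub* and *Pkhd1l1*, none had an unadjusted p under 0.05 in edgeR's quasi-likelihood test. DESeq2 gave *Pkhd1l1* an unadjusted p of 0.048 (adjusted p = 0.736), in the higher direction. *Strc* encodes stereocilin, which holds the tips of the outer hair cell stereocilia in the membrane, and read 1.09, 0.90 and 1.01 FPKM in wildtype and 1.27, 1.14 and 1.32 FPKM in *Pou4f3(Δ/+)* samples. Its *Pou4f3(Δ/+)* values lay above all wildtype values, by 0.05 FPKM between the nearest ones, with a log2 fold change of 0.25 and a standard error of 0.17 (edgeR quasi-likelihood test, adjusted p = 0.722). *Pkhd1l1*, a stereocilia coat protein and the most abundant of these genes, read 3.12, 4.32 and 1.86 FPKM in wildtype and 5.34, 3.30 and 4.71 FPKM in *Pou4f3(Δ/+)* samples, which overlapped.

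Of 4 otoconial genes 3 were tested and none had an unadjusted p under 0.05. *Otop1* was the most abundant of them, with 1.15, 1.73 and 2.14 FPKM in wildtype and 1.10, 0.99 and 1.52 FPKM in *Pou4f3(Δ/+)* samples. *Oc90*, which encodes the main matrix protein of otoconia, was at 0 counts in 5 samples and at 4 counts in *Pou4f3(Δ/+)* 1, and was not tested. Of 4 paralogues of *Emilin2*, *Emilin1* alone had an unadjusted p under 0.05 (0.048, adjusted p = 0.643, edgeR quasi-likelihood test), with 23.7, 24.3 and 25.1 FPKM in wildtype and 22.8, 23.3 and 23.7 FPKM in *Pou4f3(Δ/+)* samples. The nearest samples of the 2 genotypes differed by 0.04 FPKM, a separation in the direction that 6.03% of all genes showed, and on the CPM scale the groups overlapped. Its log2 fold change was -0.21 with a standard error of 0.09. *Emilin2* and *Emilin1* thus had fold changes of opposite sign, and their difference was not tested.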

How the data were processed

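The samples were 6 cochlear RNA libraries, 3 of each genotype. Per-transcript tables of expected counts (not always whole numbers) and of FPKM, scaled to transcript length and library total, were deposited by the authors. Per the labels, libraries were made after poly(A) selection or rRNA removal; the submitters' processing notes name mm8 and DESeq2, and the aligner and counting program are not given in the sources used here. Transcript identifiers were matched to GENCODE M21 (GRCm38), which gave the positions and sequences printed.

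Counts and FPKM were summed per gene symbol and counts were rounded. *Pou4f3(Δ/+)* was tested against wildtype with edgeR 4.0.16 (R 4.3.3): filterByExpr (minimum count 10, minimum total 15), TMM factors (0.986 to 1.02), the quasi-likelihood test without covariates and Benjamini-Hochberg adjustment over all features. Standard errors are the log2 fold change over the square root of F. Tests were first checked on simulated data. One count per kilobase was worth 0.0565 to 0.0700 FPKM, and floors cover counting error only.

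Alternatives were DESeq2 1.42.0, its size factors in edgeR, no filter, each sample left out, *Pou4f3(Δ/+)* 1 and 2 left out together, and limma-trend 3.58.1 on log2(FPKM + 0.5), with pseudocounts of 0.1 and 1 and with a mean FPKM of at least 1. CPM per kilobase of the longest coding transcript was added after seeing the data. Named were all 7 genes, their transcripts with at least 10% of the gene's FPKM in either group or an unadjusted p under 0.05, genes of the related lists with an unadjusted p under 0.05 or the highest FPKM, and the 3 genes most like the mean of the 7; other named genes were chosen after their values were seen. The genes and lists were chosen with earlier results of these data known. Marker lists served as a check of other cell types. No protein or promoter sequence was printed.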

Additional observations from a re-analysis of the deposited data

How the results depend on the processing

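Over 33 genes and transcripts, 414 alternative values were computed: 390 kept the sign and the side of the adjusted p of 0.05, 4 passed it (the *Col9a1*, *Col9a2*, *Col11a2* and *Otor* values without *Pou4f3(Δ/+)* 3), and 20 changed sign. With *Pou4f3(Δ/+)* 1 and 2 both left out, the log2 fold change was 0.13 for *Otogl* and Otogl-201, 0.13 for *Col9a1*, 0.087 for *Col9a2*, 0.19 for *Col9a3*, 0.15 for *Col11a1*, 0.010 for *Col11a2* and -0.22 for Otog-202. With each sample left out in turn, it ranged from -0.17 to 1.25 for *Tecta*, -0.16 to 1.18 for Tecta-203, -0.083 to 0.98 for *Tectb*, -0.032 to 0.30 for *Otoa*, -0.54 to 0.99 for Otog-202, -0.21 to 0.10 for *Col11a1* and -1.04 to 0.35 for *Nox3*. The cause was not tested.

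Counts of all genes past an adjusted p of 0.05 were 0 with edgeR (1309 at an unadjusted p under 0.05), 64 with DESeq2, 9 without the filter, 6 without *Pou4f3(Δ/+)* 1 and 2, and 0 to 193 with 1 sample left out, the highest without *Pou4f3(Δ/+)* 3 and 3 without wildtype 4. For transcripts they were 0 (1586 unadjusted), 130 with DESeq2, 1 without the filter and 0 to 3 with 1 sample left out. On the CPM scale, which is not per length, *Otog* passed *Otoa* and 5 of 7 genes kept their rank by level.

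No paired analysis was possible because the genotypes share 1 replicate number alone, number 3, and the labels tie no samples together. *Tecta* and *Tectb* had 3 to 40 counts per sample, and the parts of depth and of variation between samples in their errors were not tested.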
